A study of Rattus norvegicus with 9 samples.

Results

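The effect of epidural lidocaine on imiquimod-treated rat back skin was examined over the 399 genes that the submitters listed for lidocaine with imiquimod against imiquimod alone. Among them, epidermal differentiation and keratinocyte adhesion genes had lower values with lidocaine, and chemokine, acute phase, T cell and metallothionein genes had higher values, although most of these genes did not pass the test of the difference. The 399 genes are all rows of that table, out of 6197 distinct gene IDs in the series' 2 tables. Of them, 227 (56.9%) were also listed in the comparison of imiquimod with untreated skin, and 172 were absent from it and are described as a block of their own. All groups were Sprague Dawley rats of 250 g, described as wild type and kept free of specific pathogens. The lidocaine group received imiquimod on the back skin for 6 days in a row and, from day 3 of that course, epidural injections of 1% lidocaine for 4 days. The imiquimod group received the same 6 days of imiquimod and no injection that the labels mention. The untreated group, called WT by the labels, received nothing. Skin was collected on day 7, and total RNA of whole back skin was sequenced in 3 libraries per group.

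Imiquimod is an agonist of the innate RNA sensor Toll-like receptor 7, and repeated application to rodent skin gives a psoriasis-like inflammation with a thickened epidermis. Lidocaine blocks voltage-gated sodium channels, and an epidural injection bathes the spinal nerve roots that carry sensory and autonomic fibres of the body wall. Skin nerve endings release neuropeptides that act on keratinocytes, vessels and immune cells. Keratinocytes leave the basal layer, switch on the suprabasal keratins, join by desmosomes and assemble the cornified envelope that forms the skin barrier. No group with a sham injection was analysed here, so lidocaine and the injection itself cannot be told apart. In whole skin, fewer cells of a type and less RNA per cell cannot be told apart either. The labels do not say that each library is a separate animal, so p-values measure the spread between these libraries.

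All values below are normalized counts, turned back from the deposited log2 values, and each difference is lidocaine minus imiquimod on the log2(normalized count + 1) scale. No gene of the table had a difference of means under 1.00 in size, so its rows were selected on this same contrast. The p-values below are therefore too small, and the direction of every listed gene was part of why it is listed. A gene that is not listed has no value here. The reads on the 399 genes came to 417714 to 803921 per library, and 1 read was worth 0.817 to 1.24 normalized counts. The keratinocyte markers Krt1 and Krt10 were detected at high counts in all 6 libraries, which fits the skin label. No member of the lists for skeletal muscle, smooth muscle, hair keratins, melanocytes, B and plasma cells or endothelium was listed in this comparison.

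Of the 399 genes, 131 had a difference above 0 and 268 a difference below 0, with a median of -1.17. By limma with Benjamini-Hochberg adjustment over all 399, 128 genes (32.1%) passed an adjusted p of 0.05, of which 44 (11.0%) were higher with lidocaine and 84 (21.1%) lower. The 3 lidocaine libraries lay wholly outside the range of the 3 imiquimod libraries for 287 genes (71.9%), 108 of them higher (27.1%) and 179 lower (44.9%). Among the 131 genes with a difference above 0, 33.6% passed and 82.4% did not overlap, and among the 268 with a difference below 0, 31.3% passed and 66.8% did not overlap. The counts of the gene groups below are to be read against these shares, and the direction within a group was fixed by the listing. The genes that passed were mostly of low level: 61 of 66 genes with a mean under 10 normalized counts passed, 42 of 130 between 10 and 100, 18 of 133 between 100 and 1000, and 7 of 70 above 1000. When the 203 genes with a mean of at least 100 were tested by themselves none passed, the lowest adjusted p being 0.0797, although 107 of them had an unadjusted p under 0.05 and 124 did not overlap. Adjusted p-values lay close together, 381 of the 399 being under 0.1. The count of 128 was 22 without imiquimod replicate 1 and 147 without lidocaine replicate 1, the lowest and highest when each library was left out in turn. Of 29 genes past the test that the naming rule gave, none kept an adjusted p under 0.05 in all 6 of these fits: Ivl kept it in 5, Hbe1 in 3 and the other 27 in at most 2.

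**Figure D1:**
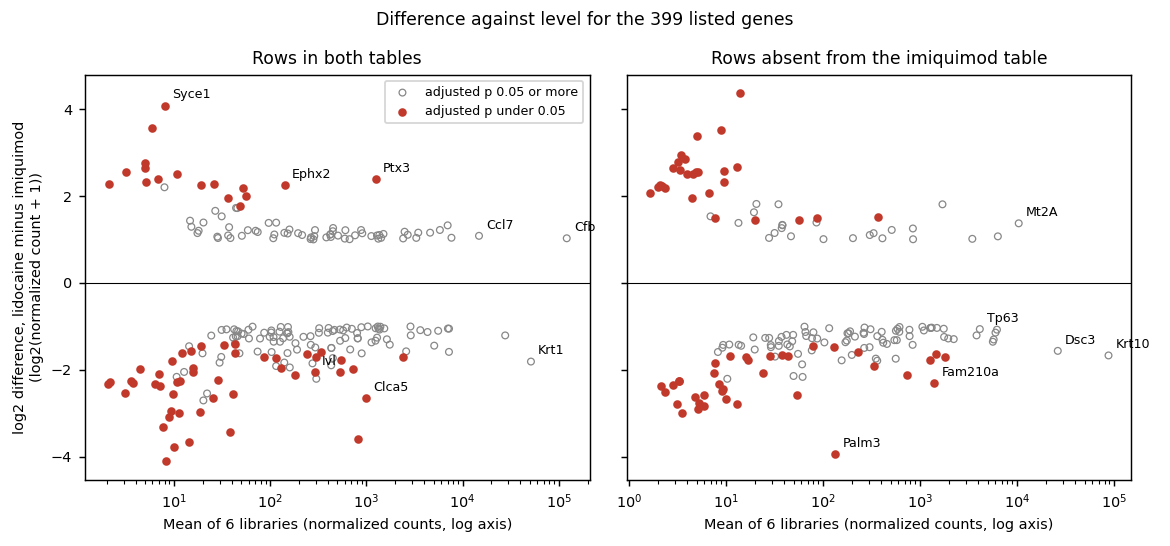
Log2 difference (lidocaine with imiquimod minus imiquimod alone) against the mean of the 6 libraries in normalized counts (log axis), with the 227 genes of both tables on the left and the 172 genes absent from the imiquimod table on the right. Filled red points are the 128 genes with an adjusted p under 0.05; no point lies within 1.00 of 0 because the table was selected, and most filled points lie at the low end of the level axis.

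Of the listed suprabasal keratins and cornified envelope genes, all had lower values with lidocaine and involucrin passed the test. The list of epidermal differentiation and barrier genes has 83 members, of which 10 were listed, all with a difference below 0 and with a median of -1.37; 1 passed the test and 3 did not overlap between the groups, both shares being below those of all genes with a difference below 0 (31.3% and 66.8%). Involucrin (Ivl), an early scaffold protein of the cornified envelope, was the member that passed. It had 84.5, 119 and 122 normalized counts in the lidocaine libraries, against 687, 410 and 320 in the imiquimod libraries. Every lidocaine library lay below every imiquimod library, and the means were 108 ± 20.8 with lidocaine and 472 ± 191 with imiquimod alone (SD, n = 3 each), a fall of 77.1%. The log2 difference was -2.06 ± 0.49 (SE; limma, adjusted p = 0.0191), and without imiquimod replicate 1 the adjusted p was 0.0655.

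Keratins 1 and 10, the partner keratins that build the filaments of suprabasal cells, had means that were 3.35-fold and 3.10-fold lower with lidocaine, with wide spread. Krt1 had 29531, 5703 and 35631 normalized counts with lidocaine, against 123034, 91640 and 22953 with imiquimod alone. Krt10 had 68316, 10080 and 50360 with lidocaine, against 188404, 176921 and 33463 with imiquimod alone. Lidocaine replicate 2 and imiquimod replicate 3 were the low libraries of their groups for both keratins, and the groups overlapped. The differences of -1.81 ± 0.83 for Krt1 and -1.67 ± 0.87 for Krt10 (SE) did not pass (limma, adjusted p = 0.0757 and 0.0913), and without lidocaine replicate 2 they were -0.97 for Krt1 and -0.82 for Krt10. Krt2, the keratin of the upper spinous and granular layers, was low in all libraries, at 20.6, 28.3 and 17.4 normalized counts with lidocaine, against 34.8, 42.5 and 67.8 with imiquimod alone, with no overlap and an adjusted p of 0.0716.

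Genes of the late differentiation programme had the same direction. Repetin (Rptn), an envelope precursor of the S100 fused type, had 9483, 2043 and 1860 normalized counts with lidocaine, against 9803, 11481 and 8699 with imiquimod alone. Lidocaine replicate 1 reached the imiquimod range, and the other two lidocaine libraries were far below it (adjusted p = 0.0672). Caspase-14 (Casp14), the protease of cornification that acts on filaggrin, had 4782, 1605 and 4106 with lidocaine, against 8144, 10349 and 5604 with imiquimod alone, without overlap (adjusted p = 0.0699). Spink5, the inhibitor of the kallikreins that shed corneocytes, had 7321, 2002 and 3723 with lidocaine, against 6777, 10124 and 7448 with imiquimod alone. Its groups overlapped through lidocaine replicate 1 (adjusted p = 0.0913), and 2 rows annotated as Spink5-like, LOC100910851 and LOC100911797, may share its reads. Sciellin (Scel), which is cross-linked into the envelope, had 4211, 1571 and 1683 with lidocaine, against 4418, 5886 and 5276 with imiquimod alone. Here too lidocaine replicate 1 lay nearest to the imiquimod libraries, and the difference of -1.21 ± 0.52 (SE) did not pass (adjusted p = 0.0702).

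**Figure D2:**
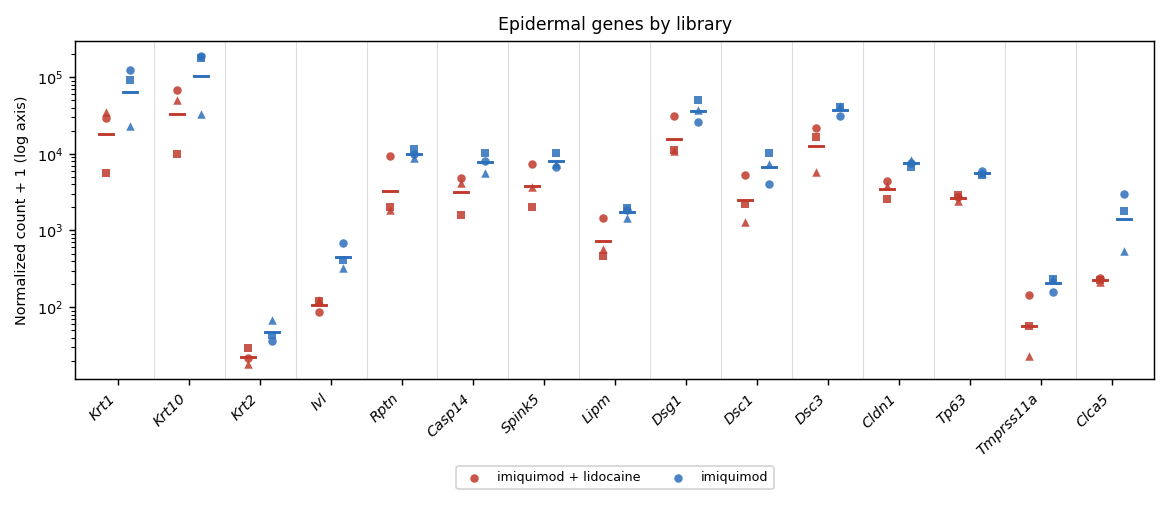
Normalized count + 1 (log axis) of 15 epidermal genes in each library, with lidocaine in red to the left of imiquimod alone in blue; circles, squares and triangles are replicates 1, 2 and 3 and bars are geometric means. All 15 bars are lower with lidocaine, while Krt1, Krt10, Rptn, Spink5, Lipm, Dsg1 and Dsc1 overlap between the groups; counts are not per length, so levels are not compared between genes.

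The promoters of Rptn and Scel are printed because genes of this programme are a textbook setting for AP-1, the Fos and Jun factor that binds TGANTCA. Each is the 250 bases before the RefSeq transcript start in the rat build GRCr8, with the AP-1 letters in capitals. Rptn (chr2:181743213-181743462, plus strand) holds TGATTCA beginning 102 bases before the start, and Scel (chr15:86754382-86754631, plus strand) holds TGACTCA beginning 37 bases before it.
Rptn: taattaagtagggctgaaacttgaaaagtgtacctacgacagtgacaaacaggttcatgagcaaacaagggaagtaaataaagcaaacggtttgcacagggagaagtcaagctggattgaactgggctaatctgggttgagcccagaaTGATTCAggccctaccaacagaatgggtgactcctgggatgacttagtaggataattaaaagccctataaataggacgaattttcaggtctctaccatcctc
Scel: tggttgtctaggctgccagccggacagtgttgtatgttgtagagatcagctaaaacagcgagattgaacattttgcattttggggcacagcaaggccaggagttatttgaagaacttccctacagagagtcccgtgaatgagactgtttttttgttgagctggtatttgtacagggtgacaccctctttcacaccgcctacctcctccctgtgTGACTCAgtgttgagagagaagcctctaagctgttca
The motif was searched on both strands. It was present in 18 of 187 promoters of genes with a difference below 0 (9.63%), in 6 of 79 promoters of genes with a difference above 0 (7.59%) and in 6.34% of all 33469 promoters of the table. Letters of the TATA box (TATAAA) were present in 12.8% of promoters of genes with a difference below 0, 17.7% of those above 0 and 12.9% of all, and the STAT letters TTCNNNGAA in 3.74% of those below 0, 7.59% of those above 0 and 7.67% of all. The motifs and the promoters shown were chosen after the values and matches had been seen, and a match is a description of letters, not of binding.

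Desmosomes and tight junctions, which hold keratinocytes together, were represented by 14 adhesion and polarity genes, a group drawn up after the values were seen. All 14 had a difference below 0, with a median of -1.26; 6 did not overlap and none passed the test, against 66.8% and 31.3% of all genes with a difference below 0. Desmocollin 3 (Dsc3), a desmosomal cadherin of the lower epidermal layers, had 21790, 16570 and 5756 normalized counts with lidocaine, against 31316, 40367 and 42494 with imiquimod alone. The groups were separate, with lidocaine replicate 3 lowest, and the difference was -1.56 ± 0.57 (SE; adjusted p = 0.0584). Desmoglein 1 (Dsg1), the upper-layer cadherin that is attacked in pemphigus foliaceus, had 31308, 11354 and 10923 with lidocaine, against 25816, 50277 and 36888 with imiquimod alone. Its groups overlapped, as did those of Dsc1, while claudin 1 (Cldn1), the main sealing protein of epidermal tight junctions, did not: it had 4481, 2559 and 3770 with lidocaine, against 7553, 6728 and 8406 with imiquimod alone (adjusted p = 0.0674).

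The transcription factor p63 (Tp63), which maintains stratified epithelium, had little spread in either group. It had 2747, 2860 and 2458 normalized counts with lidocaine, against 5988, 5273 and 5572 with imiquimod alone. The means were 2688 ± 207 with lidocaine and 5611 ± 359 with imiquimod alone (SD, n = 3 each), the lidocaine mean being lower by 52.1%, and the log2 difference of -1.06 ± 0.43 (SE) had an adjusted p of 0.0667. Basonuclin 1 (Bnc1), a zinc finger protein of basal keratinocytes, had 336, 376 and 343 with lidocaine, against 945, 508 and 893 with imiquimod alone. Grainyhead-like 1 (Grhl1), a regulator of desmosomal cadherins, had 708, 408 and 388 with lidocaine, against 709, 1052 and 1420 with imiquimod alone. Pou2f3, a POU factor of differentiating keratinocytes, had 276, 168 and 372 with lidocaine, against 1040, 472 and 354 with imiquimod alone. The lidocaine libraries lay below the imiquimod libraries for Tp63, Bnc1 and, only just, Grhl1, while the Pou2f3 groups overlapped, and none of the 4 factors passed the test.

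Surface proteases of the Tmprss11 family, trypsin-like enzymes of stratified epithelia, were listed as 4 genes, and all 4 had a difference below 0. Tmprss11g fell, with 660, 317 and 98.0 normalized counts with lidocaine, against 886, 1444 and 992 with imiquimod alone (difference -1.98 ± 0.68 SE, adjusted p = 0.0489). Lidocaine replicate 3 was lowest, and without it the difference was -1.24. Tmprss11a had 144, 54.9 and 22.3 with lidocaine, against 156, 231 and 235 with imiquimod alone, with a narrow separation. Tmprss11b and Tmprss11f had differences of -1.90 and -1.73 and did not pass, and the Tmprss11b groups overlapped. Serpina12 (vaspin), a serpin that inhibits kallikreins, fell, with 237, 72.9 and 297 with lidocaine, against 1572, 643 and 365 with imiquimod alone (difference -2.05 ± 0.70 SE, adjusted p = 0.0489).

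Among membrane transport genes of the epidermis, Clca5, a calcium-activated chloride channel regulator, fell with little spread among the lidocaine libraries. It had 237, 225 and 215 normalized counts with lidocaine, against 3027, 1772 and 534 with imiquimod alone. All lidocaine libraries lay below every imiquimod library, which themselves spread widely, and the difference was -2.65 ± 0.64 (SE; adjusted p = 0.0191). The anoctamin Ano9 fell as well, with 186, 110 and 216 with lidocaine, against 550, 416 and 535 with imiquimod alone (difference -1.59 ± 0.47 SE, adjusted p = 0.0364). Aquaporin 5 (Aqp5), the water channel of sweat and salivary glands, had 3.93, 5.14 and 38.5 with lidocaine, against 104, 51.6 and 42.5 with imiquimod alone. Its fall of -2.55 ± 0.78 (SE; adjusted p = 0.0378) rests on 4, 6 and 31 reads in the lidocaine libraries, against 119, 51 and 52 in the imiquimod libraries. The sugar transporter Slc5a9 had 416, 137 and 231 with lidocaine, against 916, 903 and 651 with imiquimod alone, a fall of 68.2% (adjusted p = 0.0364).

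Receptors through which keratinocytes answer the IL-20 and IL-22 cytokines were the listed members of the IL-17, IL-23 and IL-20 axis, 2 of 31, and neither passed. The list's ligands, IL-17, IL-22 and IL-23 among them, were not listed in this comparison. Il22ra1, the IL-22 receptor chain, had 976, 416 and 194 normalized counts with lidocaine, against 1118, 1296 and 1056 with imiquimod alone, without overlap (difference -1.43 ± 0.61 SE, adjusted p = 0.0699). Il20ra, the IL-20 receptor chain, had 32.4, 7.72 and 7.45 with lidocaine, against 49.6, 64.8 and 24.5 with imiquimod alone, with overlap (adjusted p = 0.0627). The IL-1 family gave 2 listed members with opposite directions. Il1f10 (IL-38), an epidermal cytokine that dampens IL-36 signalling, fell, with 23.6, 24.9 and 14.9 with lidocaine, against 78.4, 62.7 and 55.6 with imiquimod alone (difference -1.61 ± 0.46 SE, adjusted p = 0.0357). Il1b, the secreted inflammatory IL-1, had 5233, 5041 and 8911 with lidocaine, against 3498, 2215 and 2726 with imiquimod alone. The Il1b groups were separate and the difference of 1.16 ± 0.47 (SE) did not pass (adjusted p = 0.0672).

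The Skint genes, of which Skint1 is needed in mice for the γδ T cells of the epidermis, were listed as 3 members, all with a difference below 0. Skint8 fell, with 80.5, 30.9 and 44.7 normalized counts with lidocaine, against 287, 236 and 99.7 with imiquimod alone (difference -1.95 ± 0.58 SE, adjusted p = 0.0364). Skint1 passed at an adjusted p of 0.0388 although its groups overlapped, with 6.87, 32.6 and 6.20 with lidocaine, against 141, 24.3 and 112 with imiquimod alone. Replicate 2 was the exception in both groups of Skint1. Skint4 had a difference of -1.55 and did not pass.

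The listed chemokine genes had higher values with lidocaine, but none passed the test. The list of chemokines and their receptors has 59 members, of which 7 were listed, all with a difference above 0 and with a median of 1.13, and 5 did not overlap, a share below the 82.4% of all genes with a difference above 0. Ccl7, which draws monocytes through CCR2, had 19406, 17454 and 23676 normalized counts with lidocaine, against 10914, 8401 and 9148 with imiquimod alone. Its means of 20179 ± 3182 with lidocaine and 9488 ± 1291 with imiquimod alone (SD, n = 3 each) stood 2.13-fold apart (difference 1.09 ± 0.44 SE, adjusted p = 0.0669). Ccl12, a monocyte chemokine of rodents, had 8706, 8691 and 6798 with lidocaine, against 3986, 2310 and 4413 with imiquimod alone (adjusted p = 0.0627). Both chemokines kept the groups well apart. The list of 54 type I interferon response genes had no listed member, so there are no values for them here.

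Chemokines of T and NK cells had smaller gaps. Ccl5 had 4016, 3533 and 5660 normalized counts with lidocaine, against 3207, 1941 and 1488 with imiquimod alone. Xcl1, made by activated NK and CD8 T cells, had 843, 439 and 589 with lidocaine, against 460, 143 and 237 with imiquimod alone, with overlap. Ccl17, a dendritic cell chemokine for CCR4-bearing T cells and a gene absent from the imiquimod table, had 67.8, 32.6 and 62.0 with lidocaine, against 26.1, 9.11 and 31.9 with imiquimod alone, separated by a fraction of a count. Cxcr3, the receptor of interferon-induced chemokines on T and NK cells, had little spread. It had 1454, 1489 and 1634 with lidocaine, against 889, 595 and 706 with imiquimod alone, a 2.09-fold difference of means with an adjusted p of 0.0672.

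The listed markers of T and NK cells also had differences above 0, and none passed. Of the list of 64 markers 4 were listed (Xcl1, Cd6, Tbx21 and Lag3), and in a wider group of 13 lymphocyte genes drawn up after the values were seen all 13 had a difference above 0, with a median of 1.10. In that group 10 did not overlap, near the 82.4% of all genes with a difference above 0, and none passed. Ltb and LOC103694381 are 2 of the 13 and of the 10, although their values were nearly identical. Cd6, a receptor that tunes T cell activation, had 1169, 895 and 1643 normalized counts with lidocaine, against 692, 530 and 369 with imiquimod alone (difference 1.22 ± 0.49 SE, adjusted p = 0.0654). Tbx21 (T-bet), the transcription factor of type 1 lymphocytes, had 1242, 843 and 1607 with lidocaine, against 934, 351 and 473 with imiquimod alone. The inhibitory receptor Lag3 had 1685, 1066 and 2886 with lidocaine, against 1266, 709 and 579 with imiquimod alone. For Tbx21 and Lag3 the lowest lidocaine library lay below the highest imiquimod library. Summed over the 4 listed markers, the lidocaine libraries held 4939, 3243 and 6726 normalized counts, against 3352, 1734 and 1659 in the imiquimod libraries, which overlap by imiquimod replicate 1.

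**Figure D3:**
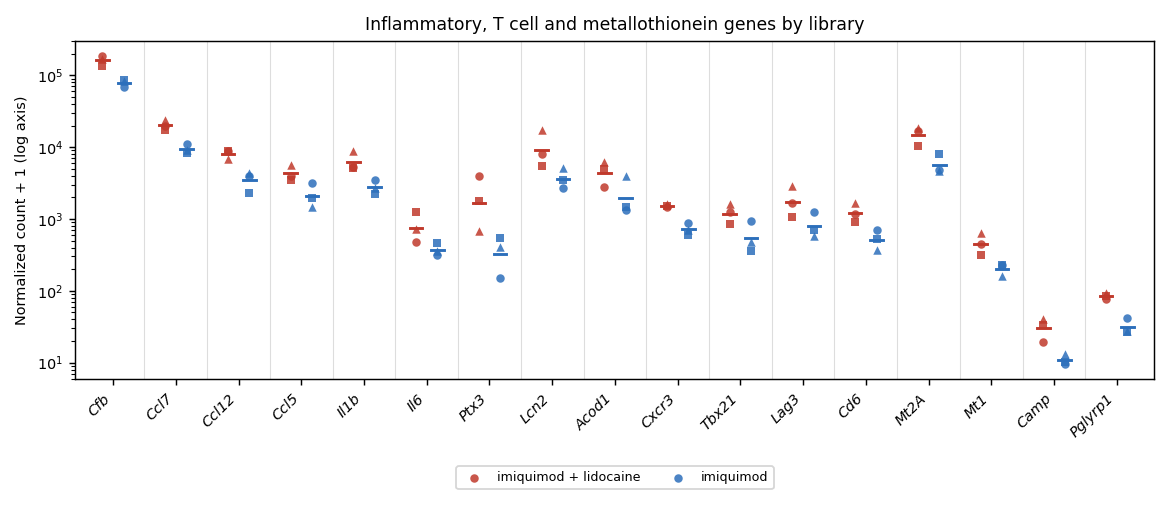
Normalized count + 1 (log axis) of 17 inflammatory, T cell, antimicrobial and metallothionein genes in each library, with lidocaine in red to the left of imiquimod alone in blue; circles, squares and triangles are replicates 1, 2 and 3 and bars are geometric means. All 17 bars are higher with lidocaine, by 1.02 to 2.39 on the log2 scale, and Acod1, Tbx21 and Lag3 overlap between the groups.

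Of the acute phase and myeloid genes, Ptx3, Camp and Pglyrp1 rose. They are 3 of 19 rows, also grouped after the values were seen, whose differences were all above 0 with a median of 1.15. Of the 19, 16 did not overlap, near the 82.4% of all genes with a difference above 0, and the share that passed was below the 33.6% of those genes. Pentraxin 3 (Ptx3), a soluble pattern receptor made at sites of IL-1 and Toll-like receptor signalling, rose, with 3917, 1784 and 681 normalized counts with lidocaine, against 150, 549 and 401 with imiquimod alone. Its means stood 5.80-fold apart with a large spread within both groups (difference 2.39 ± 0.73 SE, adjusted p = 0.0376). Complement factor B (Cfb), the protease of the alternative pathway, was listed under 2 gene IDs. The row ENSRNOG00000051158 had 185068, 135334 and 167683 with lidocaine, against 68582, 86626 and 83189 with imiquimod alone, a 2.05-fold difference without overlap (difference 1.03 ± 0.44 SE, adjusted p = 0.0699). The row ENSRNOG00000000419 had 1010, 809 and 872 with lidocaine, against 415, 483 and 435 with imiquimod alone, and the authors' counting may have split reads between them.

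Il6, the acute phase cytokine, had 473, 1252 and 731 normalized counts with lidocaine, against 312, 460 and 359 with imiquimod alone, a narrow separation (adjusted p = 0.0843). Acod1, the itaconate-producing enzyme of activated macrophages, overlapped through imiquimod replicate 3, with 2795, 4966 and 6257 with lidocaine, against 1326, 1478 and 3981 with imiquimod alone. Tnfaip6, an inducible hyaluronan-binding protein absent from the imiquimod table, had 997, 989 and 1442 with lidocaine, against 603, 509 and 570 with imiquimod alone. Lipocalin 2 (Lcn2), which withholds iron from bacteria, had 7995, 5430 and 17320 with lidocaine, against 2656, 3468 and 5167 with imiquimod alone. Its groups were separated narrowly, and lidocaine replicate 3 lay far above the rest (adjusted p = 0.0693).

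The promoters of Il6 and Lcn2 are printed because both are classical targets of NF-kB, the factor downstream of Toll-like and IL-1 receptors, and both hold the NF-kB letters searched in this window, GGGA, any base, T, any base and TCC. Each is the 250 bases before the RefSeq start in GRCr8, given in the direction of transcription with the NF-kB letters in capitals. Il6 (chr4:5894576-5894825, minus strand) holds GGGATTTTCC beginning 68 bases before the start, and Lcn2 (chr3:36081781-36082030, minus strand) holds GGGAATGTCC beginning 243 bases before it.
Il6: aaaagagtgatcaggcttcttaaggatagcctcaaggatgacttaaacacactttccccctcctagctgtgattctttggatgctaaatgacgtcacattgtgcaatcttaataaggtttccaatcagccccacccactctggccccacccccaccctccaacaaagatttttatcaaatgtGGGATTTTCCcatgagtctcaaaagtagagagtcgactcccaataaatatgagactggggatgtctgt
Lcn2: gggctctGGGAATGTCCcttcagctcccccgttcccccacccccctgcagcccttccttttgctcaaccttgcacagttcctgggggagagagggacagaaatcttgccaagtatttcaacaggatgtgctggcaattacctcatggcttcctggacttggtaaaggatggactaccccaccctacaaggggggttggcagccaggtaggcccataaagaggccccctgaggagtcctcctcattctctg
The motif, searched on both strands, was present in 3 of 79 promoters of genes with a difference above 0 (3.80%), in 1 of 187 promoters of genes with a difference below 0 (0.535%) and in 0.884% of all promoters of the table. These are counts of 3 and 1 promoters and are given as a description.

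A pair of antimicrobial genes absent from the imiquimod table, Pglyrp1 and Camp, passed the test. Pglyrp1, a peptidoglycan-binding protein of neutrophil granules, rose, with 74.6, 84.9 and 91.8 normalized counts with lidocaine, against 40.9, 25.3 and 26.2 with imiquimod alone (difference 1.44 ± 0.45 SE, adjusted p = 0.0388). Camp, the cathelicidin, rose at a low level, with 18.7, 32.6 and 39.7 with lidocaine, against 8.71, 9.11 and 12.3 with imiquimod alone (difference 1.46 ± 0.48 SE, adjusted p = 0.0457). Neither set of groups overlapped. Of the 38 neutrophil markers 4 were listed (Camp, Mmp8, Mgam and Lcn2), all with a difference above 0. Their summed level was 8367, 5955 and 17497 with lidocaine, against 2808, 3619 and 5291 with imiquimod alone, and was almost all Lcn2, which keratinocytes also express. The part of cell numbers in these differences was not tested.

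The metallothioneins, small cysteine-rich proteins that bind zinc and are induced by zinc, glucocorticoids and oxidative stress, were higher in every lidocaine library. All 3 listed genes had a difference above 0 without overlap, with a median of 1.15, and none passed. Of all genes with a difference above 0, 82.4% did not overlap and 33.6% passed, so 3 genes without overlap are no trait of this family. Mt2A had 16655, 10226 and 18298 normalized counts with lidocaine, against 4839, 8022 and 4613 with imiquimod alone (difference 1.37 ± 0.49 SE, adjusted p = 0.0534). Mt1 had 445, 316 and 630 with lidocaine, against 226, 228 and 158 with imiquimod alone (adjusted p = 0.0674). Mt1m, the metallothionein listed in both tables, had 4946, 2822 and 3223 with lidocaine, against 1205, 2467 and 1505 with imiquimod alone (adjusted p = 0.0716). Lidocaine replicate 2 was the lowest of its group for all 3 genes. Of 27 glucocorticoid-induced genes, the 4 listed were these 3 and Lcn2, and the list's others were not listed.

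The promoters of Mt1 and Mt2A are printed because metallothionein genes are the textbook carriers of the metal response element, the site of the zinc-sensing factor MTF1, searched here as TGCACNC or TGCGCNC on both strands. Each is the 250 bases before the RefSeq start in GRCr8, with matches in capitals. Mt1 (chr19:10832976-10833225, minus strand) holds 6 matches and Mt2A (chr19:10838709-10838958, minus strand) holds 4.
Mt1: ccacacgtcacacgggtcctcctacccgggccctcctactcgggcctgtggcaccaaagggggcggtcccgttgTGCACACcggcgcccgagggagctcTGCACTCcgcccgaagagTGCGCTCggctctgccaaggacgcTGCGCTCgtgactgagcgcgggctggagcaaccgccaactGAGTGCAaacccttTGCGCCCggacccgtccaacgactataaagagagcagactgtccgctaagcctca
Mt2A: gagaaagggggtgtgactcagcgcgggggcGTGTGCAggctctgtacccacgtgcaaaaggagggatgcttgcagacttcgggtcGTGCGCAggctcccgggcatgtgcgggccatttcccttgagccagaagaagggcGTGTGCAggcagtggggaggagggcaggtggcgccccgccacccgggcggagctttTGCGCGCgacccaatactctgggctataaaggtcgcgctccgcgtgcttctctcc
At least 4 matches were present in 3 of 79 promoters of genes with a difference above 0 (3.80%), in 5 of 187 of those with a difference below 0 (2.67%) and in 89 of all 33469 promoters (0.266%), so such a promoter was not particular to the metallothioneins. At least 1 match was common: it was present in 25.3% of promoters of genes with a difference above 0, in 34.8% of those with a difference below 0 and in 20.6% of all promoters.

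Of the listed ion channel genes, Kcna2, Trpm3 and Asic1 fell. Of the list of 80 ion channel and channel regulator genes 8 were listed, all with a difference below 0 and with a median of -1.32. Of the 8, 3 passed and 5 did not overlap, near the 31.3% and 66.8% of all genes with a difference below 0. Kcna2, a voltage-gated potassium channel of axons, passed although its groups overlapped, with 27.5, 51.4 and 124 normalized counts with lidocaine, against 290, 108 and 477 with imiquimod alone (adjusted p = 0.0465). Trpm3, a heat-sensitive channel of sensory neurons, fell evenly, with 12.8, 14.6 and 11.2 with lidocaine, against 52.3, 43.5 and 36.0 with imiquimod alone (difference -1.69 ± 0.44 SE, adjusted p = 0.0266). The acid-sensing channel Asic1 fell at a level of few reads, with 6.87, 1.71 and 0 with lidocaine, against 23.5, 9.11 and 9.81 with imiquimod alone (adjusted p = 0.0419). Scn8a (Nav1.6), the listed voltage-gated sodium channel gene of the class that lidocaine blocks, had 11.8, 16.3 and 13.7 with lidocaine, against 35.7, 21.3 and 48.2 with imiquimod alone. Its groups were separate and the difference of -1.21 ± 0.48 (SE) did not pass (adjusted p = 0.0654). Ano1, Clca2, Kcnk2 and Trpv6 made up the rest, and Kcnk2 and Trpv6 overlapped. Ano1 and Clca2 are chloride channel or regulator genes. The list's summed level was mostly Clca2, which had 7463, 3311 and 3931 with lidocaine out of sums of 8015, 3977 and 4491.

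Of the list of 95 neuropeptide and autonomic genes 4 were listed, near the share over all lists, which was 76 listed rows for 1619 distinct genes. None of these 4 passed, against 33.6% of all genes with a difference above 0 and 31.3% of those below 0. Npy, the vasoconstrictor peptide of sympathetic nerves, had 303, 522 and 289 normalized counts with lidocaine, against 135, 308 and 136 with imiquimod alone, with overlap through replicate 2, which was high in both groups. LOC100912228, which is not on that list, had nearly identical values. Pomc, the precursor of melanocortins and endorphin, had 24.6, 30.9 and 63.3 with lidocaine, against 20.0, 17.2 and 13.9 with imiquimod alone (adjusted p = 0.0782). Adrb3, the beta-3 adrenoceptor, had 59.9, 41.2 and 102 with lidocaine, against 7.84, 28.3 and 27.0 with imiquimod alone, without overlap (difference 1.73 ± 0.61 SE, adjusted p = 0.0527). Ret, the receptor of glial-derived neurotrophic factors, went the other way, with 219, 319 and 122 with lidocaine, against 462, 328 and 494 with imiquimod alone. The genes for substance P and calcitonin gene-related peptide, the main sensory neuropeptides on that list, were not listed in this comparison. Of 34 nerve fibre and Schwann cell markers 1 was listed, the neurofilament gene Nefh, with 158, 48.9 and 221 with lidocaine, against 591, 431 and 154 with imiquimod alone, with overlap. Outside these lists, the neuropeptide Y receptor gene Npy4r fell at a level of few reads (difference -2.36 ± 0.65 SE; limma, adjusted p = 0.0310). It had 2.95, 2.57 and 0 with lidocaine, against 6.10, 18.2 and 13.1 with imiquimod alone. In a group of 28 neuronal signalling genes, drawn up after the values were seen, 3 of 10 with a difference above 0 rose. Of the other 18, 6 fell, and both shares were near those of all genes (33.6% and 31.3%).

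Gabrd, the delta subunit of the GABA-A receptor, rose, with 181, 42.9 and 39.7 normalized counts with lidocaine, against 7.84, 35.4 and 9.81 with imiquimod alone (difference 2.18 ± 0.74 SE, adjusted p = 0.0475). The groups were separated narrowly, by lidocaine replicate 3 and imiquimod replicate 2. Gabra4, another subunit of that receptor, had a difference of -1.24 without overlap and did not pass. Ephx2, the soluble epoxide hydrolase that clears epoxy fatty acids, rose, with 315, 280 and 112 with lidocaine, against 67.9, 48.6 and 26.2 with imiquimod alone (difference 2.25 ± 0.58 SE, adjusted p = 0.0245). Hbe1, the epsilon globin gene and the listed member of 23 erythrocyte genes, rose, with 44.2, 29.2 and 58.3 with lidocaine, against 11.3, 12.1 and 3.27 with imiquimod alone (difference 2.29 ± 0.57 SE, adjusted p = 0.0208). The other globin genes on that list were not listed here.

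Among the 172 genes absent from the imiquimod table, 64 passed, 27 higher and 37 lower, and their median difference was -1.24. In the 227 genes of both tables the median was -1.13 and 64 also passed, 17 higher and 47 lower, against 32.1% of all 399 genes. Genes with a mean under 10 counts passed most often in both blocks, 38 of 42 in the absent block and 23 of 24 in the shared block. The absent block held more of them, so the counts of calls are not compared between blocks. Cdkn2b, a cell cycle inhibitor induced by TGF-beta, fell, with 414, 166 and 179 normalized counts with lidocaine, against 862, 2251 and 532 with imiquimod alone (difference -2.12 ± 0.64 SE, adjusted p = 0.0371). Fam210a, a mitochondrial protein gene, fell, with 265, 252 and 1269 with lidocaine, against 1599, 2734 and 2338 with imiquimod alone, lidocaine replicate 3 lying far above the other two (difference -2.30 ± 0.66 SE, adjusted p = 0.036). Sdr16c6, a short-chain dehydrogenase, fell, with 841, 269 and 748 with lidocaine, against 1873, 2532 and 1417 with imiquimod alone (adjusted p = 0.0419). Palm3, a paralemmin, had the largest difference of the block's genes with a mean of at least 50 counts. It had 59.9, 45.4 and 0 with lidocaine, against 251, 329 and 122 with imiquimod alone (difference -3.94 ± 1.32 SE, adjusted p = 0.0465). Without lidocaine replicate 3 the Palm3 difference was -2.03.

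Of the same block, a histone H4 gene, Hist1h4m, fell with little spread, with 61.9, 79.7 and 67.0 normalized counts with lidocaine, against 195, 215 and 171 with imiquimod alone (difference -1.47 ± 0.44 SE, adjusted p = 0.0364). Fam64a, a gene of mitotic cells, fell, with 32.4, 42.9 and 48.4 with lidocaine, against 166, 96.1 and 90.7 with imiquimod alone (adjusted p = 0.0448). Of the list of 46 genes for basal keratins, stress keratins and proliferation, 4 were listed and none passed. Whether proliferation differed was not tested. Among the rises, Arnt2, a partner of bHLH-PAS factors, had 125, 141 and 114 with lidocaine, against 26.1, 74.9 and 43.3 with imiquimod alone (adjusted p = 0.0475). Psme1-ps1 rose to 507, 460 and 705 with lidocaine, against 178, 205 and 186 with imiquimod alone (adjusted p = 0.0363), and as a pseudogene it may carry reads of the proteasome activator gene Psme1. Clock, the core circadian transcription factor, was listed with Rora and Hlf as 3 of 20 clock genes, all with a difference below 0. Of the 3, none passed and 1 did not overlap, against 31.3% and 66.8% of all genes with a difference below 0. Clock had 390, 439 and 161 with lidocaine, against 1356, 598 and 530 with imiquimod alone.

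At the far end of the level scale, 10 genes had 0 reads in all 3 lidocaine libraries and 15 had 0 reads in all 3 imiquimod libraries, and these low genes made up many of the calls. Syce1, a synaptonemal complex gene, had 17.7, 15.4 and 14.9 normalized counts with lidocaine, against 0 reads in all imiquimod libraries. With 3 reads taken as the limit in each imiquimod library, it was at least 5.93-fold higher (adjusted p = 0.000678). P2ry4, a pyrimidine nucleotide receptor, had 0, 2.57 and 0 with lidocaine, against 12.2, 17.2 and 13.9 with imiquimod alone (adjusted p = 0.00727). The 18 genes that passed whichever library was left out all had means between 1.64 and 14.2 normalized counts; 7 have symbols, P2ry4, Spats1, Fam71b, Syce1, Dlx6as, Cym and Spesp1.

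Untreated skin gives the scale for the 227 genes of both tables. In a fit of all 9 libraries, 169 of these genes (74.4%) differed between lidocaine with imiquimod and untreated skin at an adjusted p under 0.05, 69 higher (30.4%) and 100 lower (44.1%). All 227 had been listed by the submitters as differing between imiquimod and untreated skin. A high share was therefore favoured by the listing and is not a share of all genes. Both tables share the imiquimod libraries, so each comparison's own values are given side by side. Ivl had 6296, 7728 and 5114 normalized counts in untreated skin. Its log2 difference was -5.86 ± 0.44 for lidocaine minus untreated and -3.81 ± 0.44 for imiquimod minus untreated (SE). Clca5 had 10129, 8909 and 14629 in untreated skin, with a difference of -5.60 ± 0.59 for lidocaine minus untreated and -2.95 ± 0.59 for imiquimod minus untreated. For these genes, as for Krt1, Cldn1 and Il1f10, the lidocaine group was the lowest of the 3 groups by its mean. For Krt1 the lidocaine and imiquimod libraries overlapped. Its imiquimod minus untreated difference of -1.44 ± 0.78 (SE) did not pass (limma, adjusted p = 0.0952).

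Inflammatory genes had the mirrored order. Cfb had 4046, 5408 and 4146 normalized counts in untreated skin, and the lidocaine group lay 5.17 ± 0.39 and the imiquimod group 4.14 ± 0.39 log2 units above it (SE). Il1b had 522, 293 and 265 in untreated skin, with a difference of 4.16 ± 0.46 for lidocaine minus untreated and 3.01 ± 0.46 for imiquimod minus untreated. Il6 and Acod1 had 0 reads in all untreated libraries, and Ccl12 had 9.21, 0 and 0 normalized counts. Ptx3 had 88.7, 36.2 and 108, and the lidocaine group was the highest of the 3 for each of these genes by its mean.

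A further set had lidocaine values between or near those of the other groups. Rptn had 181, 145 and 142 normalized counts in untreated skin, so both imiquimod groups lay far above it, by 4.41 with lidocaine and 5.99 with imiquimod alone on the log2 scale. Tmprss11g had 0, 7.23 and 0 and Gsdmc, a pore-forming gasdermin of epithelia, 419, 210 and 508 in untreated skin, with the same order of groups. Kcna2 had 38.0, 45.5 and 116 in untreated skin, and the lidocaine minus untreated difference was -0.06 ± 0.71 (SE). Adrb3 had 65.7, 76.4 and 56.8 in untreated skin, with a difference of -0.06 ± 0.55. Ephx2, at 776, 87.8 and 674, had a difference of -0.74 ± 0.80, and Slc5a9, at 295, 167 and 164, had a difference of 0.23 ± 0.50. None of these 4 differences from untreated skin passed the test, and with such standard errors that does not show that the levels were equal.

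**Figure D4:**
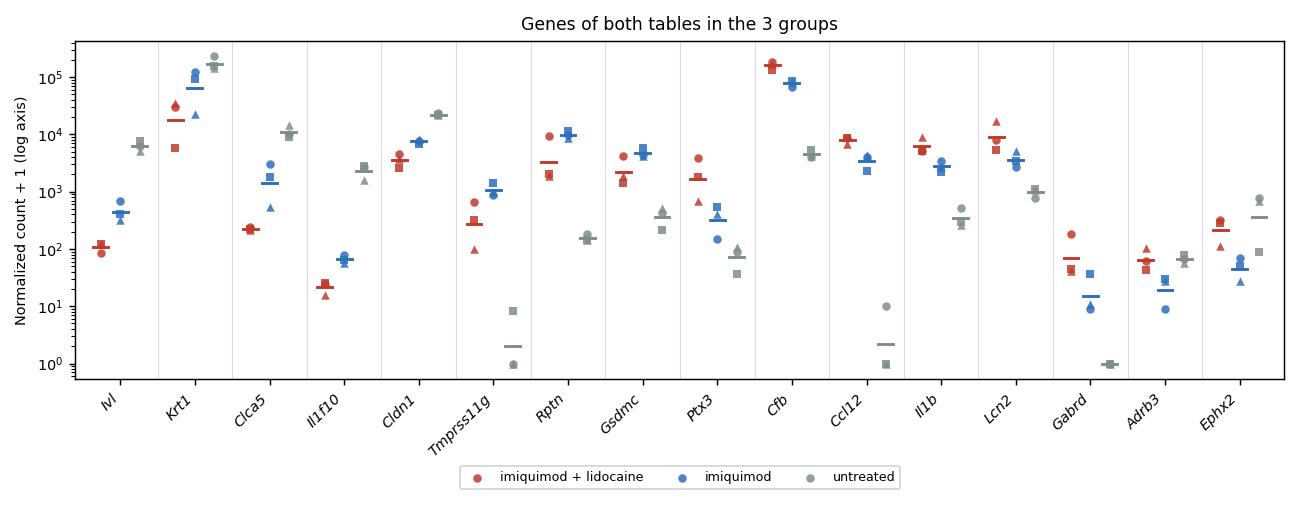
Normalized count + 1 (log axis) of 16 genes of both tables in each library of the 3 groups, from left to right lidocaine with imiquimod (red), imiquimod alone (blue) and untreated (grey); circles, squares and triangles are replicates 1, 2 and 3, bars are geometric means, and a library with 0 counts is drawn at 1. By its bar, lidocaine is the lowest group for Ivl, Krt1, Clca5, Il1f10 and Cldn1 and the highest for Ptx3, Cfb, Ccl12, Il1b and Lcn2. For Krt1 the lidocaine and imiquimod libraries overlap.

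Individual libraries shaped these patterns. In the 268 genes with a difference below 0, lidocaine replicate 3 was the lowest lidocaine library for 130, replicate 2 for 77 and replicate 1 for 39. In the 131 genes with a difference above 0, lidocaine replicate 3 was the highest for 79, replicate 1 for 33 and replicate 2 for 19. The summed level of the 10 listed epidermal differentiation genes, dominated by Krt1 and Krt10, was 157685, 35592 and 108581 normalized counts with lidocaine, against 368528, 363549 and 124219 with imiquimod alone, so imiquimod replicate 3 lay within the lidocaine range. The 7 listed chemokine genes summed to 36777, 34436 and 39599 with lidocaine, against 20107, 14613 and 16973 with imiquimod alone, with no overlap. The 3 metallothioneins summed to 22046, 13365 and 22151 with lidocaine, against 6269, 10717 and 6276 with imiquimod alone, also without overlap. The epidermal sums and the immune sums differed in opposite directions between the groups. That direction was fixed by the listing, because each sum holds only genes listed on this contrast, all with the same sign. Separation of the sums was favoured by the same listing. Whether the share of epidermal tissue in the samples differed was not tested.

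**Figure D5:**
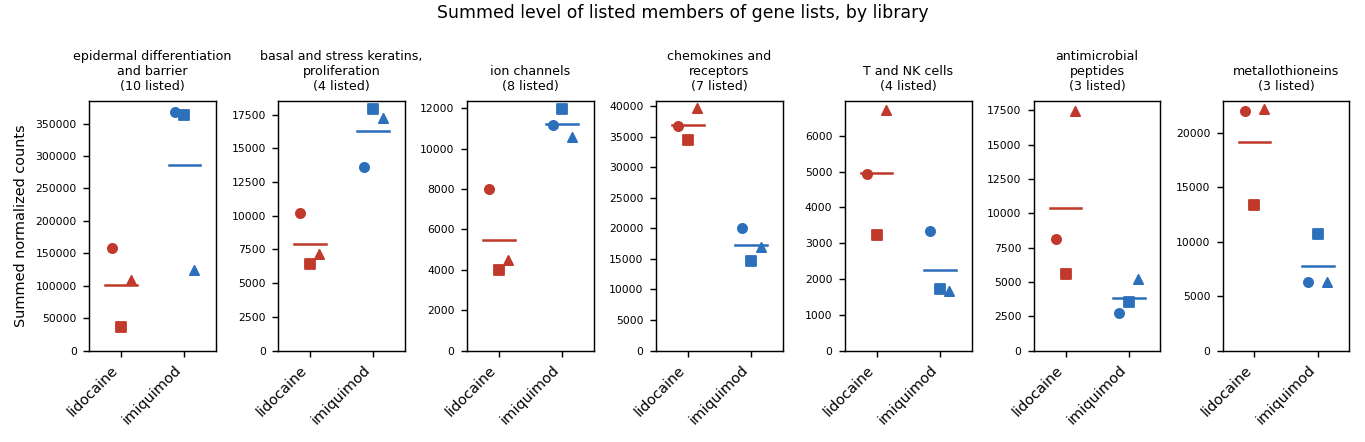
Summed normalized counts of the listed members of 7 gene lists in each library, with lidocaine to the left of imiquimod alone; circles, squares and triangles are replicates 1, 2 and 3, bars are means, and each axis starts at 0. The chemokine, antimicrobial and metallothionein sums (higher with lidocaine) separate the groups. So do the sums of ion channels and of basal keratins, stress keratins and proliferation (lower with lidocaine). The epidermal differentiation and T and NK cell sums overlap. The members were listed on this same contrast, which favours separation.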

How the data were processed

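Bulk RNA of whole rat back skin was sequenced in 9 libraries, 3 per group. Per the submitters' processing notes, bcl2fastq, STAR 2.5.3a and DESeq2 were used; not given in the sources used here: counter, build, annotation, strandedness and the row selection rule. The deposited tables hold log2 values of size-factor normalized counts plus 1, per the file headers and the values: in each library the values up to 2000 reads came out as whole multiples of 1 read within 0.01. Imiquimod values were the same in both tables.

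Values were turned back to normalized counts. Differences were tested two-sided with limma 3.58.1 in R 4.3.3 on the deposited log2 values, lidocaine 1 to 3 against imiquimod 1 to 3, with Benjamini-Hochberg adjustment over the 399 rows and a threshold of 0.05. The contrast with untreated skin used all 9 libraries and the 227 shared rows. The script was tested on simulated data. The values are log2, so no count model was used. The labels give no batch. Genes were named by a rule. Per block and direction, it took the 8 genes of largest difference and the 5 of smallest adjusted p. These came from genes that passed, carry a symbol and average 50 or more. Up to 6 listed members of each of 40 gene lists were added. For the IL-17, IL-23 and IL-20 axis, IL-1 family, neuropeptide and ion channel lists, every listed member was added. Genes beyond that rule were chosen after their values were seen. The members and lists were chosen with earlier results of these data known. Promoters came from RefSeq (GRCr8), where 266 promoters of 229 listed symbols matched. Alternatives were other thresholds, level filters, pseudocounts, fits and leaving out each library.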

Additional observations from a re-analysis of the deposited data

How the results depend on the processing

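The direction of every named gene was the same under each alternative that gave it a value, while the number of genes past the threshold depended on nearly every choice. The 128 calls (44 higher, 84 lower, 64 in both tables and 64 absent from the imiquimod table) became 13 at an adjusted p of 0.01 (8, 5, 5 and 8), 7 by Bonferroni (5, 2, 3 and 4), and 2 when adjusted as if all 23154 protein-coding genes had been tested (1, 1, 2 and 0). Restricted to means of 100 normalized counts or more there were 0 in each of these counts, against 107 genes at an unadjusted p under 0.05, and with a mean of at least 10 there was 1, a gene without a symbol (1, 0, 0 and 1), against 209. Genes with symbols alone gave 62 (25, 37, 30 and 32), a pseudocount of 0.1 gave 56 (26, 30, 23 and 33) and a pseudocount of 8 gave 1 (1, 0, 0 and 1). With an intensity trend 115 passed and with library weights 157. With the replicate block 92 passed (36 higher, 56 lower). Same-numbered libraries had correlations of -0.18, -0.09 and -0.06 in their deviations from the group means. Over 3 libraries per group and genes selected on this contrast, these values show no pairing but cannot exclude one. Leaving out each library in turn gave 22 to 147 calls (12 to 41 higher, 10 to 106 lower), with 9 to 75 among genes of both tables and 13 to 72 among the rest. The calls were 147, 49 and 34 without lidocaine replicates 1, 2 and 3, and 22, 62 and 58 without imiquimod replicates 1, 2 and 3. Lidocaine against untreated skin gave 125 to 172 calls in all of these settings, against 169. Among the genes of few reads the call depends on the pseudocount, and reads of 0 to 3 limit what can be said of them.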

Other observations

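Solute carriers, a group drawn up after the values were seen, were listed as 10 genes, all in both tables. Of the 8 with a difference below 0, 5 fell, against 31.3% of all such genes. Of the 2 with a difference above 0, 1 rose, against 33.6%. With so few genes, some of them of low level, these counts are given as a description. The amino acid transporter Slc6a19 fell, with 192, 96.9 and 128 normalized counts with lidocaine, against 662, 276 and 451 with imiquimod alone (difference -1.70 ± 0.52 SE; limma, adjusted p = 0.0376). Slc5a11, a sodium-coupled inositol transporter, fell as well (difference -2.64 ± 0.80 SE, adjusted p = 0.0371), with means of 4.36 ± 2.89 with lidocaine and 46.6 ± 54.7 with imiquimod alone (SD, n = 3 each). Imiquimod replicate 1 was far above the other two for Slc5a11; without it the difference was -1.71, and the call held in 1 of the 6 fits that left out a library. The gene that rose, Slc22a20, had few reads, with 15.7, 6.00 and 6.20 normalized counts with lidocaine, against 0, 0 and 2.45 with imiquimod alone (adjusted p = 0.0191). Carboxypeptidase A4 (Cpa4) fell, with 1922, 525 and 1235 with lidocaine, against 3072, 4084 and 3472 with imiquimod alone (adjusted p = 0.0449).

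Growth factor and receptor genes gave mixed directions. Fgfr3, a fibroblast growth factor receptor of the epidermis, had 435, 335 and 266 normalized counts with lidocaine, against 591, 760 and 804 with imiquimod alone (adjusted p = 0.0697). Epiregulin (Ereg), an EGF receptor ligand, overlapped between the groups, with 687, 322 and 374 with lidocaine, against 591, 1293 and 978 with imiquimod alone. Cyr61, a matrix protein of YAP signalling and immediate early response, had 2831, 3938 and 7555 with lidocaine, against 1971, 2261 and 2282 with imiquimod alone. It was the listed member of 35 immediate early and heat shock genes and did not pass (adjusted p = 0.0841). Wnt3 had 44.2, 93.5 and 50.9 with lidocaine, against 498, 113 and 110 with imiquimod alone, while Wnt6 had 57.9, 86.6 and 98.0 with lidocaine, against 50.5, 17.2 and 42.5 with imiquimod alone, and neither passed. Sfrp2, a secreted WNT antagonist of fibroblasts, overlapped, with 4909, 3736 and 1768 with lidocaine, against 780, 2150 and 1661 with imiquimod alone.

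Sebaceous and adipose genes were represented by Elovl7, Cyp2b12 and Acvr1c, with differences of -1.74, -2.16 and -2.54, all with overlap and none past the test. The differences of Cyp2b12 and Acvr1c rest on few reads. Cyp2b12 had 0, 5 and 5 reads with lidocaine, against 38, 5 and 19 with imiquimod alone. Acvr1c had 9, 20 and 0 reads with lidocaine, against 50, 15 and 59 with imiquimod alone. Of mast cell, eosinophil and basophil genes Ear1 and Rnase2 were listed, with differences of -1.08 and 1.19, and both overlapped.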
